A study of Homo sapiens with 24 samples.

Results

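MHC class I molecules display short peptides from inside the cell to CD8+ T cells. The genes described are the 9 whose products build, load or switch on that display: the heavy chains HLA-B, HLA-C, HLA-E and HLA-F, the light chain B2M, the peptide transporter subunits TAP1 and TAP2, the loading factor tapasin (TAPBP), and the transactivator NLRC5. They were taken by gene name from the deposited expression table, which holds 58735 genes. The cells were THP-1, a human monocytic leukaemia line, turned into macrophages over 72 hours with the phorbol ester PMA at 20 nM. CES1KD cells held, by lentivirus, a stably expressed shRNA that targets CES1, the gene of the lipid- and drug-cleaving enzyme carboxylesterase 1, and were set against cells labelled WT. Both lines were treated with 1 ug/ml LPS and 100 ng/ml interferon gamma (M1), treated with 100 ng/ml IL-4 (M2), or left resting (M0). That makes 6 groups of 4 libraries, CES1KD M1, WT M1, CES1KD M2, WT M2, CES1KD M0 and WT M0, and the series text gives the role of CES1 in these 3 states as its question. Whether a control vector was used in WT cells, whether either line is a single clone and how long LPS with interferon gamma or IL-4 was given are not stated in the sources used here. An effect of the vector or of the line therefore cannot be told apart from that of CES1 loss.

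Heavy chains fold with B2M in the endoplasmic reticulum, where tapasin holds them next to the TAP1 and TAP2 transporter until a peptide made by the proteasome is bound. HLA-B and HLA-C present peptides to CD8+ T cells and are ligands of natural killer cell receptors, while HLA-E presents leader peptides of other heavy chains to the NKG2 receptors of natural killer cells. Interferons raise these genes through STAT and IRF factors, and NLRC5 acts at the shared promoter boxes of the heavy chain and B2M genes.

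The results turn on B2M, HLA-B and TAP1 on 1 side and on TAP2 and TAPBP on the other, so their promoter windows are shown. RefSeq promoter windows (build GRCh38.p14, 250 bases before to 50 after the gene start) were found for 7 of the 9 genes, all but HLA-E and NLRC5. Capitals mark matches, on either strand, to an interferon-stimulated response element (GAAA, 2 free bases, GAAA), a kappa B site (GGG, 2 free bases, TT, 1 free base, CC), a gamma-activated site (TTC, 3 free bases, GAA), an X2 box core (TGACG) or a Y box (CCAAT). Each sequence runs 5′ to 3′ on the strand of the gene: B2M chr15:44711267-44711566 on the plus strand, and on the minus strand HLA-B chr6:31357130-31357429, TAP1 chr6:32853655-32853954, TAP2 chr6:32838690-32838989 and TAPBP chr6:33314029-33314328.
B2M: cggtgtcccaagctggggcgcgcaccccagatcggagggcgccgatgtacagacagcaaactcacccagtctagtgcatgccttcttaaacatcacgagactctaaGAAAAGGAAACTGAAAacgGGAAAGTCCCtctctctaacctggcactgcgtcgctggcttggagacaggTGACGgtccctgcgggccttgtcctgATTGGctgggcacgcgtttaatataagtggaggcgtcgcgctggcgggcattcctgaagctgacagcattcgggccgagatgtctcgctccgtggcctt
HLA-B: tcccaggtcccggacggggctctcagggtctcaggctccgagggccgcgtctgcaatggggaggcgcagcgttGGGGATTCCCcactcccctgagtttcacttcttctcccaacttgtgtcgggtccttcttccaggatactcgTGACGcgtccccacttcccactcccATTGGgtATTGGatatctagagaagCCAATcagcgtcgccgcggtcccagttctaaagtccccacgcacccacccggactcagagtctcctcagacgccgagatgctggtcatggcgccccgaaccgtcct
TAP1: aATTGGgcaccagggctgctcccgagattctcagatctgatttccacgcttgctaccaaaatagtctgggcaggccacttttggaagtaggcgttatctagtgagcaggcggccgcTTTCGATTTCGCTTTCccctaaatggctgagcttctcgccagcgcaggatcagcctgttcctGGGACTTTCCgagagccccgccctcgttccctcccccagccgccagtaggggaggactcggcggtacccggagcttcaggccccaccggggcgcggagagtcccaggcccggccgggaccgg
TAP2: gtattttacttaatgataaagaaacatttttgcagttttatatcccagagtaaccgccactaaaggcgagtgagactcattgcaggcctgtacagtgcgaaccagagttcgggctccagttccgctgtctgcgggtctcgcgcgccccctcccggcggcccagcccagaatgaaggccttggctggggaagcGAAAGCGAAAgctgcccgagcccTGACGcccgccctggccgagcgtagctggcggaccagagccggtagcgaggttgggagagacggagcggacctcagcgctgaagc
TAPBP: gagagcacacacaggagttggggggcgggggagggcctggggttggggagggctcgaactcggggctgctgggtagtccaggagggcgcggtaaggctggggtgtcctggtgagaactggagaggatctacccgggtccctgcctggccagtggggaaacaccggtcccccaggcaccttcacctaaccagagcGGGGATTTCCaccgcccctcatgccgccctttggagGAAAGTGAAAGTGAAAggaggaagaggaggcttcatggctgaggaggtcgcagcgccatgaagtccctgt

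The interferon-stimulated response element was matched in the windows of B2M, TAP1, TAP2, TAPBP and HLA-F, and in 3.57% of all 35116 windows of this length. Counting the start base as 0, B2M held 2 overlapping copies whose first bases lie at -144 and -138, TAP1 held 2 at -134 and -128, and TAPBP held 2 at -20 and -14. TAP2 held 1 copy, at -58. A kappa B match lay in the windows of HLA-B, B2M, TAP1 and TAPBP, against 5.68% of all windows. The X2 core was matched in HLA-B, HLA-C, B2M and TAP2 (24.6% of all windows), and the Y box in HLA-B, HLA-C, HLA-F, B2M and TAP1 (34.6%). Within HLA-B the X2 core at -106 preceded 3 Y boxes, and B2M had 1 of each in the same order. No window held these letters of the gamma-activated site, which 7.66% of all windows did. A match is a description of the letters and not of a bound factor, and a window with no match may hold a variant of the motif.

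**Figure D1:**
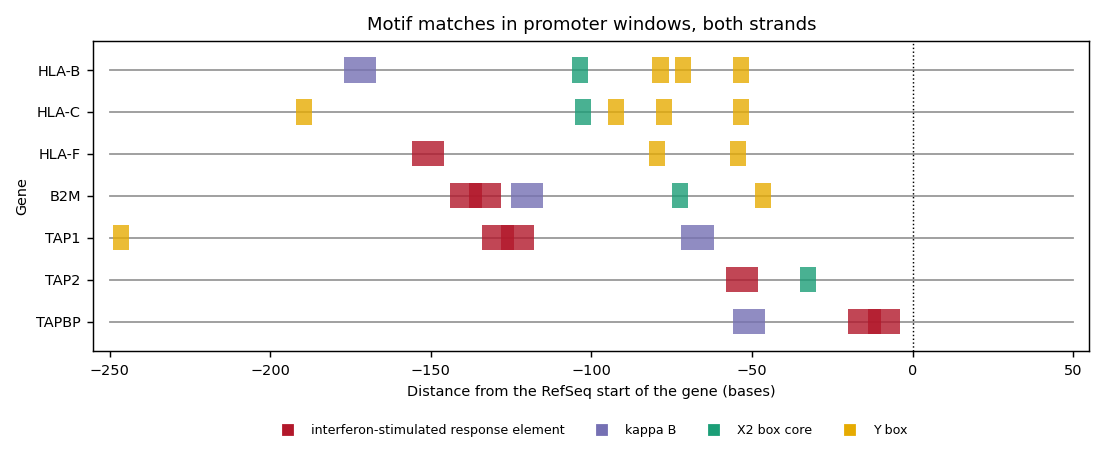
Positions of the motif matches in 7 promoter windows, as distance in bases from the RefSeq gene start (dotted line). Darker red marks the overlap of 2 response element copies in B2M, TAP1 and TAPBP. The HLA-B and HLA-C windows hold X2 core and Y box matches, and HLA-B a kappa B match. Neither holds a match to the response element letters used.

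In the coordinates of the deposited table, 7 of the genes lie on chromosome 6: HLA-F from 29722775 to 29738528, HLA-E from 30489467 to 30494205, HLA-C from 31268749 to 31272130, HLA-B from 31269491 to 31357188, TAP2 from 32821833 to 32838780, TAP1 from 32845209 to 32853978 and TAPBP from 33299694 to 33314387. B2M lies on chromosome 15 from 44711487 to 44718877, and NLRC5 on chromosome 16 from 56989485 to 57083531, 1.16 Mb from CES1. The table's identifiers are ENSG00000234745 (HLA-B), ENSG00000204525 (HLA-C), ENSG00000204592 (HLA-E), ENSG00000204642 (HLA-F), ENSG00000166710 (B2M), ENSG00000168394 (TAP1), ENSG00000204267 (TAP2), ENSG00000231925 (TAPBP) and ENSG00000140853 (NLRC5), and its build is not stated. Some of these models share ground. The table's HLA-B gene overlaps HLA-C on the same strand by 2640 bases, TAP1 lies inside PSMB9 on the opposite strand, and HLA-F overlaps its antisense gene HLA-F-AS1. No source used here says whether fragments were counted by strand. Heavy chain genes are near copies of each other and differ between cell lines, so how fragments were split among HLA-B, HLA-C, HLA-E and HLA-F is uncertain.

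The libraries held 14881563 to 26671681 fragments on genes, and pairs within a group correlated across genes at r of 0.951 to 0.991. CES1KD M2 replicate 2 stood apart, and the lowest r was 0.977 without it, so the differences of the class I genes and the counts called in M2 are also given without it. CES1 was at 0 to 0.124 FPKM in CES1KD libraries and 4.04 to 7.78 FPKM in WT libraries. Of 12 macrophage and myeloid markers 10 passed the filter on low values, among them CSF1R at 123 to 364 FPKM, but CD68 reached at most 0.113 FPKM and MRC1 at most 1.16 FPKM. Summed lymphocyte markers lay between 2.52 and 8.1 FPKM and fibroblast markers between 2.28 and 6.05 FPKM, while epithelial markers reached at most 0.131 and erythroid markers at most 1.17 FPKM. CD3E, LUM, EPCAM, HBB and HBG1 were at 0 in every library.

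Levels are in FPKM, in which fragments are divided by gene length and by library size. The table's gene lengths, such as 6079 bases for B2M and 3051 for HLA-B, need not be those of the transcripts present. Comparisons of level between genes depend on them. By this measure B2M was the highest of the 9 in resting WT cells, at 226 ± 9.07 FPKM. HLA-B followed at 102 ± 4.8, HLA-E at 91.7 ± 2.77 and TAPBP at 72.2 ± 2.8 FPKM (SD, n = 4 each). TAP1 at 23 ± 1.32, HLA-C at 21.7 ± 1.01, TAP2 at 11.7 ± 0.473 and NLRC5 at 3.91 ± 0.168 FPKM were lower. HLA-F, a heavy chain with limited surface display, was almost absent, with 133 fragments in the 24 libraries together and no more than 26 in 1. It had 0.034 to 0.238 FPKM in CES1KD M1 and 0.134 to 0.291 FPKM in WT M1 libraries, 0 to 0.056 in CES1KD M2 and 0.0103 to 0.0553 in WT M2, and 0.0131 to 0.035 in CES1KD M0 and 0 to 0.0412 in WT M0. The 4 libraries at 0 allow up to 0.0249 to 0.0404 FPKM, the worth of 3 fragments, counting error only. HLA-F did not pass the filter of FPKM of at least 1 in at least 4 libraries and was not tested, which left 8 genes with tests. Groups next to each other in its order of means all overlapped.

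**Figure D2:**
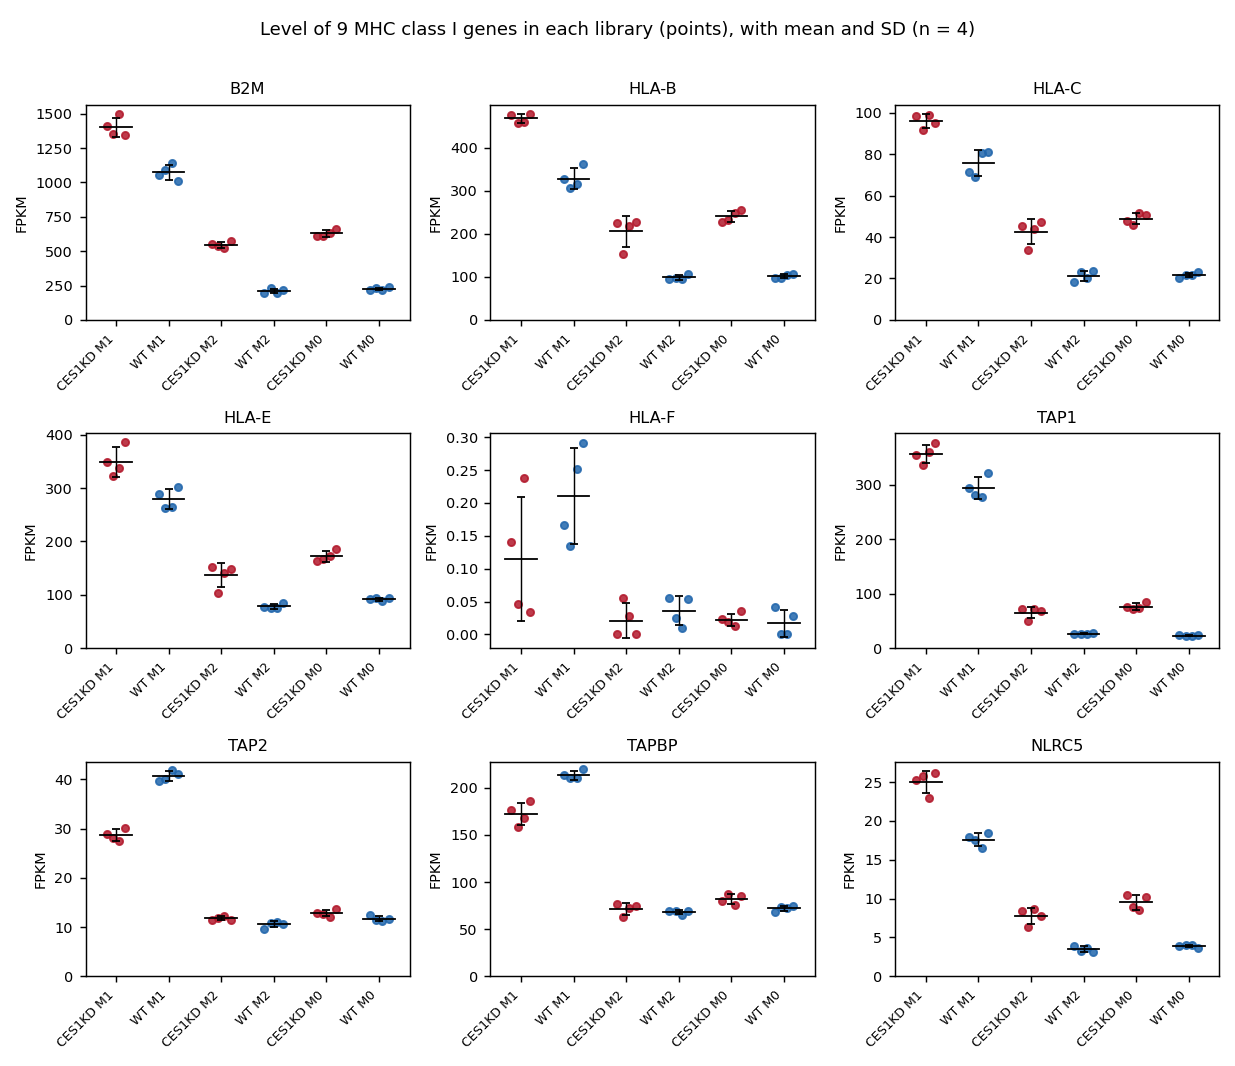
FPKM of each gene in each library (points; CES1KD red, WT blue), with the group mean and SD (n = 4), on axes that begin at 0 except for HLA-F, whose SD reaches below 0. M1 libraries are highest for every gene but HLA-F, CES1KD lies above WT in all 3 states for B2M, HLA-B, HLA-C, HLA-E, TAP1 and NLRC5, and WT M1 lies above CES1KD M1 for TAP2 and TAPBP.

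In resting macrophages all 8 tested genes were higher in CES1KD than in WT. TAP1 was 3.3-fold and B2M 2.79-fold the WT mean, the heavy chains HLA-B, HLA-C and HLA-E 2.37-, 2.25- and 1.88-fold, and NLRC5 2.43-fold, while TAPBP and TAP2 were at 1.13- and 1.09-fold. B2M was at 612, 611, 635 and 659 FPKM in CES1KD M0 libraries, against 217, 230, 220 and 237 in WT M0. TAP1 was at 76.1, 70.8, 72.9 and 84.2 FPKM in CES1KD M0, against 23.1, 22.9, 21.4 and 24.7 in WT M0. For both genes every CES1KD library lay above every WT library. HLA-B had 227, 233, 247 and 254 FPKM in CES1KD M0 and 97.7, 97.3, 105 and 106 in WT M0, again without overlap. NLRC5 had 10.5, 8.86, 8.48 and 10.2 FPKM in CES1KD M0 and 3.88, 4, 4.09 and 3.7 in WT M0. HLA-C had 47.7, 45.6, 51.6 and 50.8 FPKM in CES1KD M0 and 20.4, 21.8, 21.6 and 22.9 in WT M0. HLA-E had 163, 168, 172 and 186 FPKM in CES1KD M0 and 91.4, 93.5, 88 and 94 in WT M0. The CES1KD libraries were again all higher for these 3 genes. The transporter subunit TAP2 hardly differed, with 12.8, 12.7, 12.1 and 13.6 FPKM in CES1KD M0 and 12.4, 11.5, 11.2 and 11.7 in WT M0, and its groups overlapped. TAPBP had 79.5, 87, 75.8 and 84.9 FPKM in CES1KD M0 and 68.1, 73.5, 73 and 74.2 in WT M0, close but not overlapping.

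Tests were made with limma on log2(FPKM + 1) across 13242 genes, with Benjamini-Hochberg adjustment over those genes. Since 1 is added before the log, a log2 difference understates the change of low genes. In M0 the log2 difference, CES1KD minus WT, was 1.68 for TAP1 (SE 0.08, limma adjusted p = 1.83e-13), 1.47 for B2M (SE 0.06, adjusted p = 1.61e-15), 1.23 for HLA-B (SE 0.09, adjusted p = 1.33e-10) and 1.09 for NLRC5 (SE 0.08, adjusted p = 1.67e-10). It was 1.14 for HLA-C and 0.90 for HLA-E. For TAPBP it was 0.18 (SE 0.06, adjusted p = 0.0162) and for TAP2 0.12 (SE 0.05, adjusted p = 0.0397). The TAP2 call was lost in 8 of 17 alternatives: with total scaling (0.04, adjusted p = 0.437), with limma-voom (0.13, adjusted p = 0.0539), and without any single one of WT M0 replicates 2, 3 and 4 or CES1KD M0 replicates 1, 2 and 4 (0.09 to 0.12, adjusted p 0.0639 to 0.135). The TAPBP call was lost in 3 of 17: with total scaling (0.10, adjusted p = 0.196) and without WT M0 replicate 1 (0.15, adjusted p = 0.0599) or CES1KD M0 replicate 2 (0.15, adjusted p = 0.0621). Calls were common here: 54.3% of all tested genes passed in this comparison and 28.1% were higher, and in 59.3% of all genes the libraries did not overlap, against 7 of the 8 genes. The median of the 8 was 1.11 on the log2 scale, against 0.00 over all tested genes. The libraries do not come with a statement of separate cultures, so these p-values measure the spread between the samples, which may be technical. The samples are bulk, and more cells that express a gene cannot be told apart from more RNA per cell.

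Markers of another myeloid stage moved with the same contrast. Of 8 progenitor and granule genes 6 passed the filter. The 8 summed to 9.41 to 18.2 FPKM in CES1KD libraries and 161 to 302 FPKM in WT libraries over the 3 states. The 12 macrophage and myeloid markers summed to 1046 to 1192 FPKM in CES1KD M0 and 806 to 894 FPKM in WT M0. In M1 their sums were 1414 to 1552 FPKM in CES1KD and 1067 to 1201 FPKM in WT. In M2 they were 764 to 1077 FPKM in CES1KD and 873 to 911 FPKM in WT, which overlap. By mean, CSF1R, TYROBP, SPI1, CD163, ITGAX and CD14 were higher in CES1KD M0 than in WT M0. ITGAM, LYZ, LAMP1, FCGR2A, MRC1 and CD68 were lower. The part of these markers in the class I results was not tested. Values of chromosome neighbours were taken as well. Within 5 Mb of the chromosome 6 genes the median log2 difference of the other kept genes was 0.05 to 0.16 in M0, within 5 Mb of B2M -0.11 and within 5 Mb of NLRC5 -0.10, and the part of the neighbourhood in the results was not tested.

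Under LPS with interferon gamma the ratio of CES1KD to WT means was lower than in M0 for all 8 tested genes. The sign of the difference split within the set. In FPKM the gap between the lines went both ways. It was wider in M1 for TAP1, with means of 356 in CES1KD M1 and 294 in WT M1, against 76 in CES1KD M0 and 23 in WT M0. For B2M it was narrower, with 1402 in CES1KD M1 and 1075 in WT M1, against 629 in CES1KD M0 and 226 in WT M0. Of the 8 tested genes 6 were higher in CES1KD M1 than in WT M1 and 2, TAP2 and TAPBP, were lower. B2M was at 1411, 1355, 1497 and 1346 FPKM in CES1KD M1, against 1055, 1088, 1144 and 1013 in WT M1. HLA-B was at 476, 458, 459 and 479 FPKM in CES1KD M1, against 327, 306, 315 and 362 in WT M1. TAP1 was at 354, 335, 359 and 376 FPKM in CES1KD M1, against 294, 281, 278 and 322 in WT M1. The CES1KD libraries were the higher ones for these 3 genes, without overlap, and by 1.3-, 1.43- and 1.21-fold of the means. NLRC5 followed them, with 25.3, 25.8, 23 and 26.1 FPKM in CES1KD M1 and 17.9, 17.6, 16.5 and 18.4 in WT M1. HLA-C had 98.7, 91.5, 99.1 and 94.9 FPKM in CES1KD M1 and 71.5, 69, 80.8 and 81.2 in WT M1, and HLA-E had 349, 322, 338 and 387 in CES1KD M1 and 289, 263, 265 and 302 in WT M1. The transporter's second subunit and tapasin went the other way. TAP2 was at 28.9, 28, 27.5 and 30.2 FPKM in CES1KD M1, against 39.7, 40, 42 and 41.1 in WT M1. TAPBP was at 176, 159, 168 and 186 FPKM in CES1KD M1, against 214, 210, 210 and 220 in WT M1. For these 2 genes every CES1KD library lay below every WT library. The promoter windows of all 4 of B2M, TAP1, TAP2 and TAPBP hold response element matches, as shown above. Those of HLA-B and HLA-C hold none, and HLA-E and NLRC5 had no window. The part of these matches in the M1 results was not tested.

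The log2 difference in M1, CES1KD minus WT, was 0.52 for HLA-B (SE 0.09, limma adjusted p = 4.77e-05), 0.49 for NLRC5 (SE 0.08, adjusted p = 2.87e-05), 0.38 for B2M (SE 0.06, adjusted p = 5.24e-06), 0.34 for HLA-C, 0.31 for HLA-E and 0.28 for TAP1 (SE 0.08, adjusted p = 0.00766). It was -0.49 for TAP2 (SE 0.05, adjusted p = 8.74e-09) and -0.31 for TAPBP (SE 0.06, adjusted p = 0.000124). TAP1 lost its call when levels were scaled to total fragments (0.19, adjusted p = 0.0606, against 0.00165 to 0.0606 over its 17 alternatives). Of all genes 57.2% passed in M1, 28.5% higher and 28.7% lower, and 50.1% had libraries that did not overlap, against 8 of these 8. The median of the 8 was 0.33, against 0.00 over all tested genes. Summed progenitor and granule markers were 12.8 to 17 FPKM in CES1KD M1 and 161 to 199 FPKM in WT M1 libraries.

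**Figure D3:**
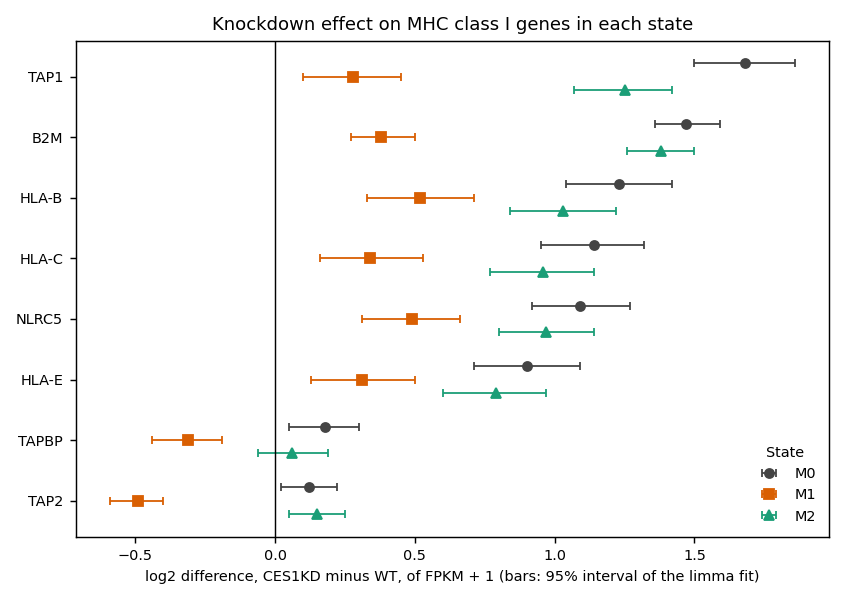
Log2 difference, CES1KD minus WT, of FPKM + 1 for the 8 tested genes in each state, with its 95% interval from the limma fit. The M1 squares lie left of the M0 and M2 symbols for every gene, and those of TAPBP (-0.31) and TAP2 (-0.49) lie below 0.

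The difference of the knockdown effect between M1 and M0 was itself tested on the log2 scale. All 8 genes passed, with a smaller or reversed effect in M1 on that scale. It was -1.40 on the log2 scale for TAP1 (SE 0.12, limma adjusted p = 9.99e-09), -1.09 for B2M (SE 0.08, adjusted p = 8.35e-10), -0.79 for HLA-C, -0.72 for HLA-B (SE 0.13, adjusted p = 0.000242), -0.61 for NLRC5, -0.61 for TAP2 (SE 0.07, adjusted p = 3.93e-07), -0.59 for HLA-E and -0.49 for TAPBP (SE 0.08, adjusted p = 0.000159). Of all tested genes 23.6% passed in this test, 13.2% with the negative sign and 10.4% with the positive one. These differences and those of M1 against M0 share libraries with the M0 comparison. The 8 genes passed in each of the 25 alternative settings or left-out libraries. In M2 the same test called TAP1 alone of the 8, at -0.43 (SE 0.12, adjusted p = 0.0298), with 6.65% of all genes called, 4.24% negative and 2.41% positive. That call was lost in 8 of 25 alternatives, over all of which the adjusted p ran from 0.00737 to 0.0749. The libraries whose absence ended it were WT M0 replicates 1, 2 and 3, WT M2 replicate 4 and CES1KD M0 replicate 4 (-0.38 to -0.43, adjusted p 0.0501 to 0.0749), and the value was -0.31 (adjusted p = 0.016) without CES1KD M2 replicate 2.

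With IL-4, 7 of the 8 tested genes were higher in CES1KD M2 than in WT M2. B2M was at 553, 534, 520 and 575 FPKM in CES1KD M2, against 196, 229, 194 and 219 in WT M2, 2.6-fold of the mean. HLA-B was at 225, 152, 218 and 228 FPKM in CES1KD M2, against 95.8, 98.2, 94.1 and 107 in WT M2. TAP1 was at 70.8, 50.1, 70.8 and 68 FPKM in CES1KD M2, against 26.7, 26, 25.9 and 27.3 in WT M2. The second CES1KD library, the one that stood apart, was the lowest for HLA-B and TAP1 but not for B2M, and still lay above all WT libraries. It was also lowest for HLA-C (33.9 against 43.9 to 47.3 FPKM in the others) and HLA-E (104 against 141 to 153 FPKM). In WT M2 libraries HLA-C lay at 18.5 to 23.6 and HLA-E at 74.4 to 85 FPKM, below every CES1KD M2 library. NLRC5 had 8.38, 6.28, 8.69 and 7.76 FPKM in CES1KD M2 and 3.96, 3.19, 3.64 and 3.11 in WT M2. TAP2 had 11.5, 11.8, 12.3 and 11.4 FPKM in CES1KD M2 and 9.63, 10.8, 11 and 10.7 in WT M2, a small gap without overlap. TAPBP had 76.9, 62.6, 72.6 and 74.3 FPKM in CES1KD M2 and 69.6, 68.8, 65.3 and 69.4 in WT M2, which overlap.

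The log2 difference in M2 was 1.38 for B2M (SE 0.06, limma adjusted p = 6.97e-15), 1.25 for TAP1 (SE 0.08, adjusted p = 3.68e-11), 1.03 for HLA-B (SE 0.09, adjusted p = 2.9e-09), 0.97 for NLRC5, 0.96 for HLA-C and 0.79 for HLA-E. Without CES1KD M2 replicate 2 it was 1.39 for B2M, 1.37 for TAP1, 1.17 for HLA-B, 1.05 for NLRC5, 1.06 for HLA-C and 0.91 for HLA-E. TAP2 was higher by 0.15 (SE 0.05, adjusted p = 0.0105), also 0.15 (adjusted p = 0.0147) without CES1KD M2 replicate 2, a call lost without WT M2 replicate 1 (0.11, adjusted p = 0.0535) and when the 2 groups were fitted alone (0.15, adjusted p = 0.0857). TAPBP was not called at 0.06 (95% interval -0.06 to 0.19, adjusted p = 0.396), but was without CES1KD M2 replicate 2 (0.13, adjusted p = 0.0466). Of all genes 52.3% passed in M2, 25.6% higher, and 42.2% had libraries that did not overlap, against 7 of the 8. The median of the 8 was 0.96, against -0.01 over all genes. Summed progenitor and granule markers were 9.41 to 14.2 FPKM in CES1KD M2 and 202 to 234 FPKM in WT M2 libraries.

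LPS with interferon gamma raised all 8 tested genes in both lines, without overlap between M1 and M0 libraries. TAP1 had the highest ratio of the 8, at 4.69-fold of the M0 mean in CES1KD and 12.8-fold in WT, and B2M at 2.23-fold in CES1KD and 4.76-fold in WT. On the log2 scale the M1 minus M0 difference of TAP1 was 2.22 in CES1KD (SE 0.08, limma adjusted p = 2.52e-15) and 3.62 in WT (SE 0.08, adjusted p = 1.43e-19). For B2M it was 1.15 in CES1KD and 2.25 in WT, and for NLRC5 1.31 in CES1KD and 1.92 in WT. HLA-B gave 0.96 in CES1KD and 1.68 in WT, HLA-C 0.96 and 1.75, and HLA-E 1.01 and 1.60 in the same order of lines. TAP2 gave 1.10 in CES1KD and 1.71 in WT, and TAPBP 1.06 in CES1KD and 1.55 in WT. The tests of the difference between the lines are those of the M1 and M0 knockdown effects given above, since the arithmetic is the same. M1 against M0 called 44.7% of all genes in CES1KD, 24.9% higher and 19.8% lower, and 48.1% in WT, 26.4% higher and 21.8% lower. Libraries did not overlap in 45.5% of genes in CES1KD and 47.2% in WT. The median of the 8 was 1.08 in CES1KD, against 0.01 over all genes, and 1.73 in WT, against 0.00. The deposited FPKM use an adjusted library size which came to between 0.87 and 0.946 of total fragments in the M1 libraries, against 1.01 to 1.14 of them in the other libraries. Scaled to total fragments instead, the median of all genes moved to -0.18 in CES1KD and -0.20 in WT, the genes called higher fell to 1837 of 7171 in CES1KD, against 3296 of 5922 as deposited, and to 2005 of 7644 in WT, against 3493 of 6374. All 8 genes still passed in both lines, with TAP1 at 1.96 in CES1KD and 3.37 in WT and HLA-B at 0.70 in CES1KD and 1.42 in WT.

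By mean level the groups ran from CES1KD M1 through WT M1, CES1KD M0 and CES1KD M2 to WT M0 and WT M2 for B2M, HLA-B, HLA-C, HLA-E and NLRC5, and for TAP1 with WT M2 before WT M0. CES1KD M0 and CES1KD M2 overlapped for HLA-B, HLA-C, TAP1 and NLRC5, and WT M0 and WT M2 for HLA-B, HLA-C, B2M and NLRC5. For TAP2 and TAPBP the order began with WT M1 and CES1KD M1, without overlap. Below them CES1KD M0, CES1KD M2 and WT M0 overlapped in turn for TAP2, as did WT M0, CES1KD M2 and WT M2 for TAPBP.

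**Figure D4:**
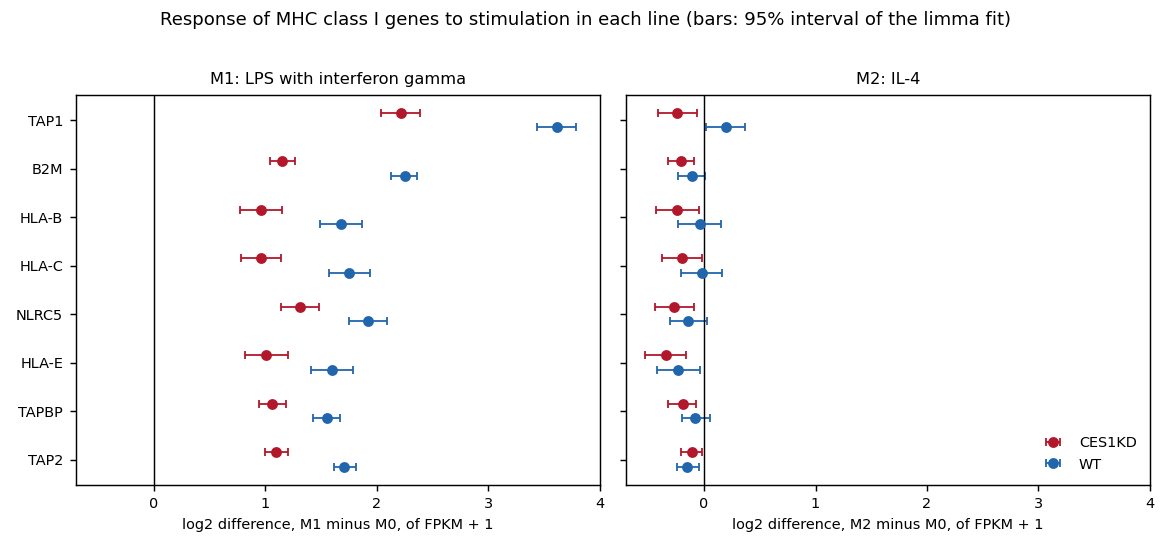
Log2 difference of FPKM + 1 for M1 minus M0 (left) and M2 minus M0 (right) in CES1KD (red, upper point) and WT (blue, lower point), with 95% intervals of the limma fit. M1 differences run from 0.96 to 2.22 in CES1KD and from 1.55 to 3.62 in WT, while all M2 differences lie between -0.34 and 0.20.

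Under IL-4 the differences from M0 were small, between -0.34 and 0.20 on the log2 scale. In CES1KD cells 5 of the 8 genes were lower in M2 than in M0 and none higher: HLA-E at -0.34 (SE 0.09, limma adjusted p = 0.00681), NLRC5 at -0.27, TAP1 at -0.24 (adjusted p = 0.049), B2M at -0.21 (adjusted p = 0.00948) and TAPBP at -0.19. In WT cells TAP2 alone was called, lower at -0.15 (SE 0.05, adjusted p = 0.0245), and the other 7 did not pass. Of all genes 22.8% passed in CES1KD, 11.3% higher and 11.5% lower, and 27.1% in WT, 14.6% higher and 12.5% lower, against 5 and 1 of these 8 lower. Libraries of M2 and M0 did not overlap for 2 of the 8 genes in CES1KD, against 23.1% of all genes, and for 3 of 8 in WT, against 33.4%. Without CES1KD M2 replicate 2 only HLA-E (-0.22, adjusted p = 0.0146) and B2M (-0.20, adjusted p = 0.0185) were called in CES1KD. The same count was 2 without CES1KD M0 replicate 4, 3 without CES1KD M0 replicate 1, and 0 when the 2 groups were fitted alone. The TAP2 call in WT was lost without WT M0 replicate 1 (-0.12, adjusted p = 0.0926), without WT M2 replicate 1 (-0.11, adjusted p = 0.103) and with the groups alone (-0.15, adjusted p = 0.0563), and HLA-E was called without WT M2 replicate 4 (-0.27, adjusted p = 0.049) and with the groups alone (-0.23, adjusted p = 0.00763). TAP1, at 0.20 and not called in the fit of all groups (adjusted p = 0.0931), was called higher with the groups alone (0.20, adjusted p = 0.0115).

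The genes also differed in how they stood to each other within a library, which library scaling cannot change. These ratios are descriptions, and all but the B2M ratio were chosen after values were seen. Their size depends on the gene lengths used. TAP1 over TAP2, the 2 subunits of 1 transporter, averaged 12.4 ± 0.466 in CES1KD M1 and 7.22 ± 0.524 in WT M1, 5.53 ± 0.874 in CES1KD M2 and 2.53 ± 0.185 in WT M2, and 5.93 ± 0.278 in CES1KD M0 and 1.96 ± 0.102 in WT M0 (SD, n = 4 each). The 5.53 of CES1KD M2 holds 4.23 in replicate 2, against 5.76 to 6.13 in the other 3 libraries. Each CES1KD library was above each WT library of its state. TAP1 over TAPBP was 2.07 in CES1KD M1 and 1.38 in WT M1, and 0.931 in CES1KD M0 and 0.319 in WT M0. B2M over the sum of the 4 heavy chains named was 1.4 to 1.67 in CES1KD M1 and 1.36 to 1.73 in WT M1, 1.29 to 1.84 in CES1KD M2 and 1.02 to 1.16 in WT M2, and 1.34 to 1.4 in CES1KD M0 and 1.02 to 1.08 in WT M0. In CES1KD M2 the 1.84 was replicate 2, and the other 3 libraries had 1.29 to 1.36. The WT M2 and WT M0 libraries were the lowest. HLA-B over HLA-C stayed between 3.9 and 5.18 in all 24 libraries. Their gene models overlap by 2640 bases on the same strand. How fragments were split between HLA-B and HLA-C is uncertain, which bears on this ratio and on their correlation. Across the 24 libraries, which share the 6 groups, the log2 levels of HLA-B and HLA-C correlated at r = 0.994 and those of TAP2 and TAPBP at 0.99, while TAP2 and HLA-B correlated at 0.781 and TAPBP and HLA-B at 0.809.

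The genes most like each member, by Pearson r of log2(FPKM + 1) over the 24 libraries among 9800 protein-coding candidates, are given as a description. OASL was nearest to HLA-B (0.993) and HLA-C (0.992) of the genes reported, USP18 to HLA-E (0.993), RSAD2 and HERC5 to B2M (0.996 each), and PML to TAP1 (0.995) and NLRC5 (0.993). CXCL10 followed for TAP1 (0.995), STAT2 for NLRC5 (0.992), GTPBP1 for HLA-E (0.991) and BATF2 for HLA-C (0.991). TAP2 was most like CD74 (0.993) and IRF1 (0.992), and TAPBP most like IRF1 (0.992) and PSMB9 (0.99).

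The rest of the class I pathway was read from lists. Over all tested genes, for comparison with each count, the shares called were as follows. In M0 28.1% were higher and 26.3% lower in CES1KD than in WT. In M1 it was 28.5% higher and 28.7% lower, and in M2 25.6% higher and 26.7% lower. Without CES1KD M2 replicate 2 the M2 shares were 27.6% and 28.2%. Among 16 transcription factors of class I genes, 7 were higher and 2 lower in CES1KD M0 than in WT M0, 6 higher and 5 lower in M1, and 9 higher and 1 lower in M2. In M2 without CES1KD M2 replicate 2 these counts were 8 and 3. STAT2, a factor of type I interferon signalling, was higher by 1.63 (M0, SE 0.07, limma adjusted p = 3.11e-14), 0.35 (M1, SE 0.07, adjusted p = 0.000393) and 1.62 (M2, SE 0.07, adjusted p = 4.67e-14). Its effect in M1 minus that in M0 was -1.28 (SE 0.10, adjusted p = 4.92e-09). IRF1, an interferon gamma induced factor, was lower in M1 (-0.70, SE 0.09, limma adjusted p = 1.43e-06), higher in M2 (0.57, SE 0.09, adjusted p = 2.46e-05) and not called in M0 (0.20, adjusted p = 0.0743). It had 32.2 to 38.4 FPKM in CES1KD M1 and 52.3 to 63.4 in WT M1, 3.95 to 6.52 in CES1KD M2 and 3.25 to 3.61 in WT M2, and 5.95 to 6.61 in CES1KD M0 and 5.1 to 5.8 in WT M0, with no overlap between the lines in any state. CIITA, the class II transactivator, was lower in M1 (-0.71) and not called in M0 (-0.05) or M2 (-0.02). Its means in CES1KD and WT were 0.903 and 2.11 FPKM in M1, 0.0231 and 0.0614 in M0, and 0.0213 and 0.0368 in M2. At the M0 and M2 levels the test on log2(FPKM + 1) can show little difference of either sign. NFKB1, a kappa B binding subunit, was higher by 0.75 in M0, 0.33 in M1 and 0.63 in M2. RFX5, which binds the X box, was higher in M1 by 0.36 and in M2 by 0.21, and its neighbours within 5 Mb by a median of 0.50 and 0.51. The neighbours of IRF1 had medians of -0.47 for M0, -0.44 for M1 and -0.36 for M2. The 16 factors had medians of 0.14 for M0, 0.07 for M1 and 0.21 for M2, against medians of 0.00, 0.00 and -0.01 over all tested genes.

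The immunoproteasome cuts proteins into peptides suited to class I. Of its 6 genes 3 were higher and 1 lower in M0, against 28.1% and 26.3% of all genes. In M1 0 were higher and 5 lower, against 28.5% and 28.7%, and in M2 2 were higher and 1 lower, against 25.6% and 26.7%. Without CES1KD M2 replicate 2 the M2 counts were 3 and 1, with PSMB8, another catalytic subunit, the one added (0.21, limma adjusted p = 0.0366). PSMB9, a catalytic subunit whose gene model encloses that of TAP1, differed by 0.46 in M0 (SE 0.10, limma adjusted p = 0.00046), -0.30 in M1 (SE 0.10, adjusted p = 0.014) and 0.37 in M2 (SE 0.10, adjusted p = 0.00362). PSME2, of the proteasome activator, was lower in M1 (-0.71) and not called in M0 (0.04) or M2 (0.05), and POMP, the assembly chaperone, was lower in all states, at -0.42, -0.43 and -0.49. M1 against M0 raised 5 of the 6 in CES1KD, against 24.9% of all genes, and 6 of 6 in WT, against 26.4%. Of the constitutive subunits PSMB5, PSMB6 and PSMB7, PSMB5 alone was called between the lines, lower in M1 (-0.27). The 6 immunoproteasome genes had medians of 0.14 (M0), -0.39 (M1) and 0.04 (M2), and the 3 constitutive ones 0.02, -0.18 and 0.06.

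Among 9 genes of peptide trimming and loading, 3 were higher and 4 lower in M0, against 28.1% and 26.3% of all genes, and 2 higher and 4 lower in M1, against 28.5% and 28.7%. In M2 4 were higher and 4 lower, against 25.6% and 26.7%, and so they were without CES1KD M2 replicate 2. The medians were 0.06 (M0), -0.01 (M1) and 0.15 (M2). The counts of higher genes in M0 and M1 lie near those shares. ERAP1, which trims peptide ends in the endoplasmic reticulum, was lower, at -0.71 in M0, -0.71 in M1 and -0.48 in M2, and its neighbours within 5 Mb on chromosome 5 had medians of -0.39, -0.26 and -0.22. CANX, the chaperone calnexin, was lower, at -0.58, -0.54 and -0.59, and its neighbours had medians of -0.49, -0.42 and -0.49. HM13, the signal peptide peptidase that helps make the peptides HLA-E shows, was higher by 0.54 in M0, 0.76 in M1 and 0.37 in M2, and TAPBPL, the tapasin-related editor, by 0.33, 0.42 and 0.52. Of 10 other class I-like genes 7 passed the filter, and ULBP2, an NKG2D ligand, was higher in M0 by 0.71, in M1 by 0.70 and in M2 by 0.78. MICB, another NKG2D ligand, was higher by 0.43, 0.44 and 0.37 in the same states. Of the 7 tested, M0 had 3 genes higher and 2 lower, against 28.1% and 26.3% of all genes, M1 had 3 higher and 1 lower, against 28.5% and 28.7%, and M2 had 3 higher and 2 lower, against 25.6% and 26.7%. The M2 counts were 3 and 2 also without CES1KD M2 replicate 2. The medians were 0.03 (M0), 0.04 (M1) and 0.17 (M2).

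Of 7 listed receptor genes, not all of them known from myeloid cells, 5 were tested. KIR2DL4, a natural killer cell receptor gene, was higher in all states, by 0.74 in M0, 0.90 in M1 and 0.63 in M2. LILRB1, an inhibitory receptor for class I, was lower in M0 (-0.48) and in M1 (-0.58) and did not pass in M2 at -0.12. Of the 5 receptors M0 had 1 higher and 3 lower, against 28.1% and 26.3% of all genes, M1 also 1 and 3, against 28.5% and 28.7%, and M2 had 1 of each, against 25.6% and 26.7%, with and without CES1KD M2 replicate 2. Their medians were -0.34 (M0), -0.34 (M1) and 0.02 (M2). Of 6 cross-presentation genes CYBB, the phagosome oxidase subunit, was lower in all states, at -1.64 in M0, -2.34 in M1 and -1.98 in M2. CD74, the invariant chain, was lower in M1 (-1.88), but higher in M0 by 0.36 and in M2 by 0.27, while its neighbours had medians of -0.44 for M0, -0.41 for M1 and -0.39 for M2. For these 6 genes M0 had 1 higher and 1 lower, against 28.1% and 26.3% of all genes, M1 had 0 higher and 2 lower, against 28.5% and 28.7%, and M2 had 1 higher and 2 lower, against 25.6% and 26.7%. Without CES1KD M2 replicate 2 the M2 counts were 1 and 3, the added gene being LNPEP, a trimming aminopeptidase of endosomes (-0.26, limma adjusted p = 0.0191). Medians were -0.04 (M0), -0.08 (M1) and -0.20 (M2).

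**Figure D5:**
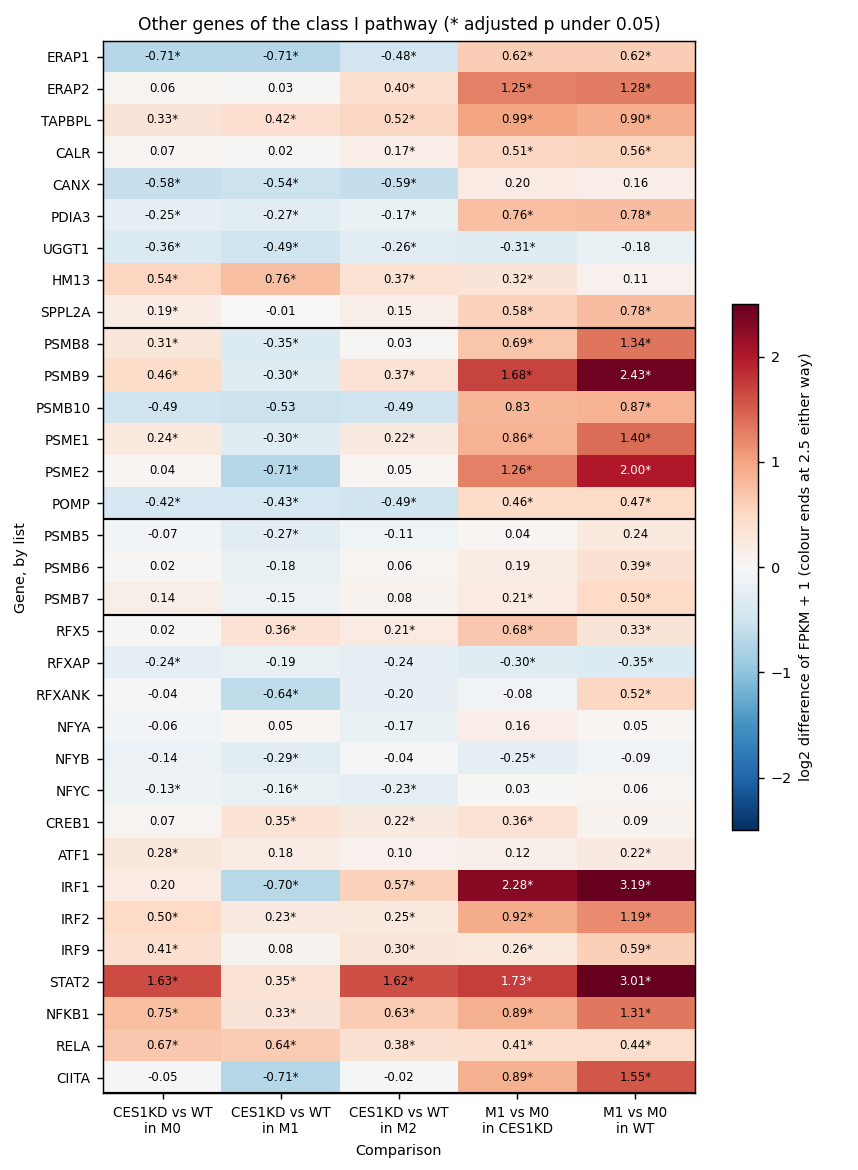
Log2 difference of FPKM + 1 for 4 lists of pathway genes (from the top: trimming and loading, immunoproteasome, constitutive subunits, the transcription factors reported here) in 5 comparisons, the group named before "vs" minus the other. Asterisks mark adjusted p under 0.05; STAT2 shows 1.63 in M0 and 0.35 in M1, and PSMB9 0.46 in M0 and -0.30 in M1.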

How the data were processed

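RNA of 24 THP-1 samples was sequenced, 4 in each of 6 groups taken from the labels. The authors deposited FPKM for 58735 genes with gene lengths and coordinates; the submitters' processing notes name CASAVA, HISAT2 and DESeq, without versions or roles, and no source used here gives the build, annotation or strand setting. Multiplied by gene length, the deposited FPKM fell on whole steps of 1 size in each library (tolerance 1e-06 of a step, 100% of genes), which gave back whole fragments and showed that the authors' adjusted library sizes were proportional to median-ratio size factors, computed here from those fragments.

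The filter kept 13242 genes, those that reached 1 FPKM in 4 or more libraries. After adding 1, log2 values were fitted with limma 3.58.1 (R 4.3.3), 6 group means over all 24 libraries and an intensity trend; p-values were two-sided and adjusted over the kept genes by Benjamini-Hochberg, with a threshold of 0.05. The code of the fit was run on simulated data with independent noise and few changed genes. That setting is unlike these data, and its outcome is not used here. Alternatives were a pseudocount of 0.1, no filter, a filter of 5 FPKM, scaling to totals, TMM sizes or median-ratio factors, a replicate block, the compared groups alone, and each library left out; limma-voom on the recovered fragments was chosen after seeing the data. Median-ratio scaling repeats the deposited scaling, so it is counted in each tally of alternatives but could not change a call. Intervals cover 95%, and floors are 3 fragments and cover counting error only.

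The 9 genes, the gene lists and the rule for naming genes (the 9 genes, CES1, up to 3 genes by p per list and comparison, and the 2 genes most like each of the 9, with a mean of at least 2 FPKM in the highest group) were chosen with earlier results of these data known. Results of some genes that the rule or the lists took are not reported here, though counts and medians over a list include them. Sequences came from RefSeq (GRCh38.p14). Figures and summaries were made with Python 3.11.15 and pandas 2.3.3.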

Additional observations from a re-analysis of the deposited data

Results flagged for a closer look

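In CES1KD M2 the second library was set apart from the other 3 by more than Dixon's 95% limit in HLA-B (152 FPKM) and in TAP1 (50.1 FPKM), the lowest value of its group in each. These were 2 of 54 groups tested, and chance flags about 1 in 20.

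The knockdown effect, CES1KD minus WT, differed between M1 and M0 by the test of the difference for all 8 tested genes. The difference on the log2 scale was -1.40 for TAP1, -1.09 for B2M, -0.79 for HLA-C, -0.72 for HLA-B, -0.61 for TAP2, -0.61 for NLRC5, -0.59 for HLA-E and -0.49 for TAPBP. The knockdown effect in M2 minus that in M0 passed for TAP1, at -0.43.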

How the results depend on the processing

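Over all comparisons, 1291 of 1352 values of single genes under an alternative kept their direction and their side of the threshold, 42 kept the direction but no longer passed, 15 newly passed and 4 changed sign. The 4 are M2 minus M0 of HLA-C in WT, 0.00 without WT M0 replicate 4 and 0.04 without WT M2 replicate 1 (range with a library left out -0.07 to 0.04), and the M2 effect minus the M0 effect, 0.01 for HLA-E without CES1KD M2 replicate 2 (range -0.18 to 0.01) and -0.01 for TAP2 without WT M2 replicate 1 (range -0.01 to 0.06). None of these 3 differences was called in any fit run. The 1352 values include those under median-ratio scaling, which repeats the deposited scaling, so those values could not differ. For M2 against M0 in CES1KD, the genes called were 1861 of 13242 when the 2 groups were fitted alone, against 3025, and the class I genes called were 8 with total scaling, 0 with the groups alone and 2 to 6 with a library left out, against 5. In WT they were 4 with total scaling, 2 with the groups alone, and 0 to 2 with a library left out, against 1. The M2 effect minus the M0 effect was called for 0 genes without a filter, with total scaling and with the groups alone, and for 0 to 1 with a library left out, against 1. The cause was not tested. With total scaling the genes called higher were 1349 of 3965 for M2 against M0 in WT, against 1934 of 3585, and 506 of 951 for the M2 effect minus the M0 effect, against 319 of 881. Same-numbered replicates were not treated as pairs in the main fit. Of 12 same-numbered pairs 5 had a correlation of deviations over 0.1 (range -0.0578 to 0.413), and 9 of 24 libraries correlated best with their own number. Whether same-numbered libraries share a culture or batch was not tested. With the replicate block the class I genes called for M2 against M0 were 3 in WT, with TAP1 higher (0.20, adjusted p = 0.0357) and HLA-E lower (-0.23, adjusted p = 0.0213) beside TAP2, and 6 in CES1KD, and the counts of class I genes in the other 7 comparisons did not change. The 2 planned tests on counts (edgeR and DESeq2) were not run, since the deposited values are FPKM. HLA-F, with 133 fragments in all, is limited by depth and was called only without a filter, for M1 against M0 in WT.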
